A study of Mus musculus with 217 samples.

Results

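The genes described here encode subunits of the Polycomb complexes and an enzyme that removes a Polycomb mark. They were chosen by name, 10 of the 54532 genes in the count tables, and all 10 had reads in both tissues at both ages. Ezh1, Ezh2, Eed, Suz12 and Jarid2 belong to Polycomb repressive complex 2 (PRC2), Bmi1, Ring1, Rnf2 and Cbx7 belong to Polycomb repressive complex 1 (PRC1), and Kdm6b is a histone demethylase that is not a subunit of either complex. RNA-Seq covered 217 libraries of striatum and cortex, 100 from mice of 6 months in 5 conditions and 117 from mice of 12 months in 6 conditions, with 9 to 10 mice of both sexes per group. All mice were C57BL/6 and carried a lac repressor transgene (LacIR) under the β-actin promoter, controls included. LacQ140 mice were heterozygous for a mutant Htt allele (mHtt) with an expanded CAG tract and lac operators (Hdh(LacO-140Q/+)), in a line founded from 2 targeted ES cell clones. IPTG keeps the repressor off that allele. WT mice had no IPTG, and WT + IPTG and LacQ140 mice were given it from embryonic life onward. LacQ140_A mice were never given IPTG, so that mHtt was lowered throughout, and LacQ140_2M and LacQ140_8M mice lost their IPTG at an age of 2 or 8 months. LacQ140_8M mice were sequenced at 12 months alone. The 6-month tissue was labelled as the right striatum and right cortex and formed batch1 of the labels, while the 12-month tissue carried no side and formed batch2, so age and batch cannot be told apart and every test was made within an age.

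PRC2 places methyl groups on a lysine of histone H3, with Ezh1 or Ezh2 as the catalytic subunit, Eed and Suz12 as the core that the catalytic subunit needs, and Jarid2 as an accessory subunit that helps bring the complex to chromatin. PRC1 attaches ubiquitin to histone H2A through the RING finger pair formed by Rnf2 (also called Ring1b) or Ring1 with a Pcgf protein such as Bmi1 (Pcgf4), and Cbx proteins such as Cbx7 read the mark that PRC2 leaves. Kdm6b removes that H3 mark. In neurons, which no longer divide, Ezh1 is known as the prevailing catalytic subunit, and the complexes keep developmental regulators such as the Hox genes silent.

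The promoters of Bmi1 and Rnf2 are shown because the transcripts of this RING finger pair varied together across libraries. Some other pairs of members did so as well, as described below. Both were taken from RefSeq on GRCm38.p6, run from 250 bases before to 50 after the start of the gene on its own strand, and have each CpG in capitals.

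Bmi1, chr2:18676768-18677067, plus strand: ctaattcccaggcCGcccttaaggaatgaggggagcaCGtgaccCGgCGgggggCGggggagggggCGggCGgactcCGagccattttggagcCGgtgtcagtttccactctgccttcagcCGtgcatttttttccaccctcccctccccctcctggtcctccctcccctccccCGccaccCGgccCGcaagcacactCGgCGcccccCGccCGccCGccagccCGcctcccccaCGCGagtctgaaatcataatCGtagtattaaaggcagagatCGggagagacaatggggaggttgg

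Rnf2, chr1:151500942-151501241, minus strand: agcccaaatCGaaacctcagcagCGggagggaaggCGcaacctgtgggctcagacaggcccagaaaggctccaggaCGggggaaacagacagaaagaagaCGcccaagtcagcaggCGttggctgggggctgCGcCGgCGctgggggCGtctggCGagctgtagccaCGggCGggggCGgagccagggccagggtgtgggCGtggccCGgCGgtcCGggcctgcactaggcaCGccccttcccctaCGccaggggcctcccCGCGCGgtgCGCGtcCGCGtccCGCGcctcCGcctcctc

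The Bmi1 window held 23 CpGs at a GC content of 66.3% and the Rnf2 window held 30 at 72.7%. Of the 10 members, 9 matched a promoter in the table, and their windows held between 17 CpGs (Eed) and 41 (Suz12). The median over all 32851 promoters was 7, and 31.4% of promoters held at least 17, so the members lie in the CpG-rich share of the table. On either strand the letters CACGTG occurred once in the Bmi1 window and in none of the other members, against 7.15% of all promoters. CCAAT occurred in the windows of Ezh2, Eed, Suz12, Jarid2 and Cbx7, against 37.4% of all promoters. CCGGAAG (8.86% of all promoters) and TTCGCGC (1.59%) occurred in none of the members' windows, and none of these motifs contains another.

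Libraries held between 33292057 and 68038831 counts, with a median of 43867552, and levels are given as CPM, counts relative to the library total with TMM factors. Reads of Htt, which were not parted by allele, averaged 114.5 CPM in WT, 110 in WT + IPTG, 101 in LacQ140, 86.4 in LacQ140_A and 87.9 in LacQ140_2M striatum at 6 months, and 126, 139, 104, 87.4 and 94.3 CPM at 12 months, when LacQ140_8M mice averaged 104 CPM. In every library of a tissue, log2 CPM was also regressed on log2 transcript length, since long and short transcripts can be recovered unequally. The mean slope lay between 0.30 and 0.47 in all groups except the 12-month cortex, where it lay between -0.20 and -0.10. There, level and length bias cannot be told apart. Within the 6-month cortex, 5 libraries stood apart from the other 45 on the first principal component of all genes, with scores from 34.2 to 48.8 against at most 26.2. They are WT female 3 and male 5, and LacQ140_2M females 4 and 5 and male 4. Values without them, an alternative chosen after seeing the data, are given beside the results of the 6-month cortex that they move most. The tissue labels held against their markers: Drd1, a receptor of striatal spiny neurons, averaged 220 CPM in striatum and 11.4 CPM in cortex at 6 months, and 181 and 14.7 CPM at 12 months.

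Per kilobase of transcript, Cbx7 had the highest level of the 10 genes and Ezh2 the lowest in the striatum of WT mice at 6 months. Cbx7 stood at 27.2 ± 2.36 CPM per kb (SD, n = 10). Ezh1, the catalytic subunit of mature neurons, followed at 16.8 ± 0.965 CPM per kb, against 2.05 ± 0.220 CPM per kb for Ezh2. Ring1 stood at 12.8 ± 2.07 and Bmi1 at 9.03 ± 0.863 CPM per kb. Rnf2 (6.84 ± 0.689), Suz12 (6.79 ± 0.576), Eed (6.45 ± 0.446) and Jarid2 (5.90 ± 0.772 CPM per kb) came next, and neighbours among these 4 differed by less than the larger of their SDs. Kdm6b stood at 3.13 ± 0.562 CPM per kb, between them and Ezh2. The order of the ends was the same in the striatum of WT mice at 12 months, from Cbx7 at 24.6 ± 1.66 and Ezh1 at 18.02 ± 0.738 down to Kdm6b at 3.61 ± 0.440 and Ezh2 at 1.67 ± 0.312 CPM per kb. In the 6-month cortex Cbx7 (21.5 ± 2.65), Ezh1 (15.6 ± 1.05) and Bmi1 (10.2 ± 3.004 CPM per kb) led, and Kdm6b (2.66 ± 0.610) and Ezh2 (1.19 ± 0.172) again closed the order. Without the 2 WT libraries that stand apart, Bmi1 (8.82 ± 0.868) stood below Ring1 (9.98 ± 2.01 CPM per kb, n = 8), by less than the SD of Ring1. In the 12-month cortex, Ring1 (16.9 ± 3.58) and Cbx7 (16.8 ± 1.79 CPM per kb) did not differ beyond their spread, and Kdm6b was lowest at 0.660 ± 0.170 CPM per kb. Kdm6b has the longest transcript of the 10 genes, 6654 bases, and Ring1 the shortest, 2034 bases.

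**Figure D1:**
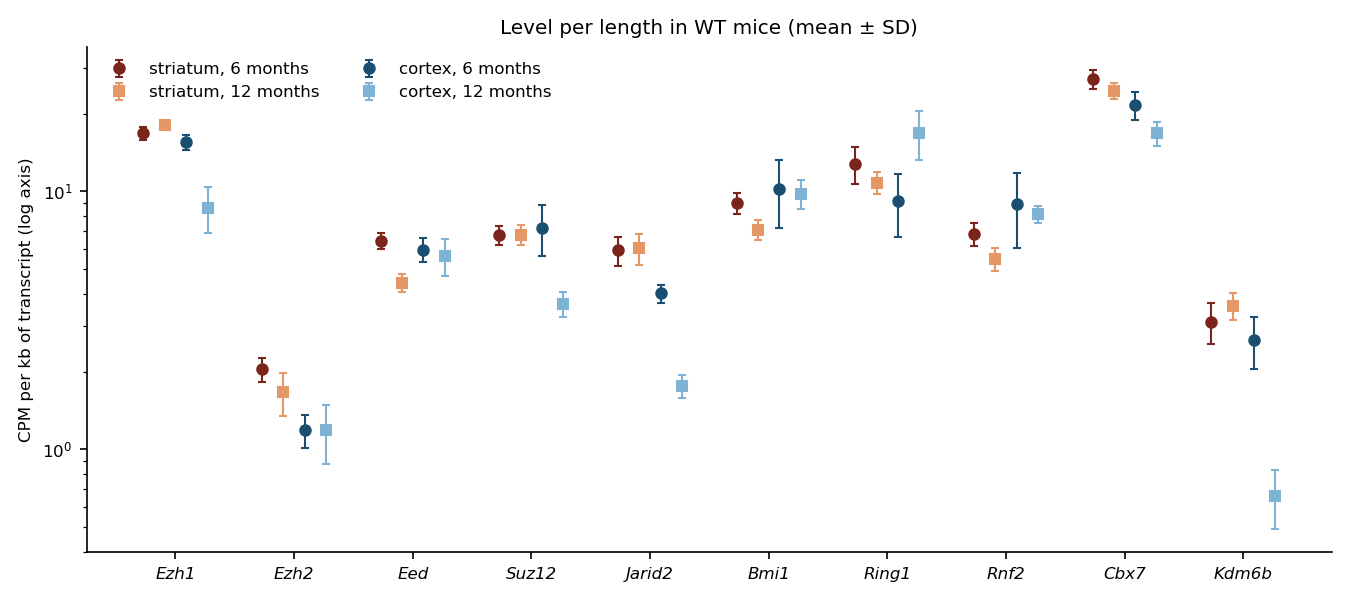
Mean level per kilobase of transcript (CPM per kb, log axis) of the 10 genes in WT mice, with bars for the SD over 9 or 10 libraries, by tissue (colour) and age (circle, 6 months; square, 12 months). Cbx7 and Ezh1 lead in striatum, Ezh2 lies at 2.05 CPM per kb or below throughout, and Kdm6b is lowest in the 12-month cortex.

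The first comparison asked how expression of mHtt changed these genes, with LacQ140 against WT + IPTG mice. In striatum at 6 months Kdm6b and Rnf2 rose and the other 8 genes did not pass the test. At 12 months Rnf2 and Bmi1 rose, Cbx7 fell, and 7 genes, Kdm6b among them, did not pass. In cortex no member passed at either age. These are 2 of 10 and 3 of 10 members in striatum, where 11.8% of all genes tested passed at 6 months and 14% at 12 months by edgeR's quasi-likelihood test at an adjusted p under 0.05. Among genes with an average of at least 1 CPM, as every member had, 24.7% and 28.8% passed, so the members' shares are near the background. The median log2 fold change of the members was 0.04 at 6 months and 0.08 at 12 months, against 0.00 over all genes. In bulk tissue, fewer cells of a type and less RNA per cell cannot be told apart.

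Kdm6b, the demethylase, gave the largest LacQ140 effect of the 10 genes in striatum at 6 months. At 6 months its striatal level in WT + IPTG mice ran from 12.8 CPM at the lowest through a median of 17.1 to 22.3 CPM at the highest. In LacQ140 mice it ran from 22.2 through 25.4 to 39.9 CPM. Of the 10 LacQ140 libraries 9 lay above the highest WT + IPTG library, so the groups overlapped in a narrow stretch alone. This is a log2 fold change of 0.64 with an SE of 0.10 (adjusted p = 3.26e-06), a rise of 56.2%, and Kdm6b was the sole member to pass the bound of a 20% change. WT mice without IPTG lay higher, from 15.1 through 21.7 to 26.3 CPM, and with both control groups pooled, a comparison chosen after seeing the data, the log2 fold change was 0.51 (adjusted p = 8.53e-06). At 12 months WT + IPTG mice ran from 19.2 through 29.8 to 42.2 CPM, and LacQ140 mice from 23.7 through 31.02 to 35.1 CPM. The LacQ140 range lay inside the range of the controls, and the log2 fold change was 0.05 (95% interval -0.14 to 0.24, adjusted p = 0.869), or 0.19 (adjusted p = 0.131) with both control groups pooled. The effects at the 2 ages were not tested against each other. Kdm6b is overlapped by the antisense gene Kdm6bos, and reads of the 2 strands cannot be told apart here.

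Rnf2, the main ubiquitin ligase of PRC1, rose at both ages by a smaller amount. At 6 months WT + IPTG mice ran from 17.7 through 19.9 to 25.9 CPM and LacQ140 mice from 22.5 through 23.2 to 25.0 CPM. All 10 LacQ140 libraries lay above the median of WT + IPTG mice, and none above its highest library. This is a log2 fold change of 0.21 with an SE of 0.06 (adjusted p = 0.0127). WT mice without IPTG lay higher, from 18.4 through 22.8 to 24.9 CPM, and with both control groups pooled the log2 fold change was 0.16 (adjusted p = 0.0359). At 12 months WT + IPTG mice ran from 15.0 through 16.5 to 18.1 CPM and LacQ140 mice from 17.3 through 18.8 to 23.3 CPM. Here 5 of the 9 LacQ140 libraries exceeded every WT + IPTG library, for a log2 fold change of 0.24 with an SE of 0.06 (adjusted p = 0.00342), and of 0.19 (adjusted p = 0.00904) with both control groups pooled.

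Bmi1, the partner of Rnf2, rose at 12 months. WT + IPTG mice ran from 20.3 through 25.8 to 30.1 CPM and LacQ140 mice from 25.9 through 27.5 to 36.2 CPM. All 9 LacQ140 libraries lay above the control median and 3 above its highest library. This is a log2 fold change of 0.22 with an SE of 0.07 (adjusted p = 0.0247), and it was 0.22 (adjusted p = 0.00724) with both control groups pooled. The call rested on single libraries, since it was lost without LacQ140 male 3 or male 4 or without WT + IPTG female 2 or male 4, with log2 fold changes from 0.17 to 0.24 and adjusted p-values up to 0.0991. At 6 months the log2 fold change of Bmi1 was 0.12 (95% interval 0.01 to 0.23, adjusted p = 0.19).

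Cbx7, the reader subunit with the highest level, fell at 12 months. WT + IPTG mice ran from 80.5 through 88.3 to 97.8 CPM and LacQ140 mice from 74.6 through 78.7 to 85.9 CPM. All 9 LacQ140 libraries lay below the control median and 5 below its lowest library. This is a log2 fold change of -0.13 with an SE of 0.04 (adjusted p = 0.0155), and it was -0.09 (adjusted p = 0.0663) with both control groups pooled. At 6 months it was 0.06 (95% interval -0.04 to 0.15). Ring1, the other ligase of PRC1, gave log2 fold changes of -0.02 and 0.08 at the 2 ages.

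No PRC2 member passed in striatum. At 6 months the log2 fold changes were 0.04 for Ezh1, 0.05 for Ezh2, 0.02 for Eed, -0.09 for Suz12 and -0.10 for Jarid2. At 12 months they were -0.04, 0.17, 0.07, 0.08 and -0.13 in the same order. The 95% interval of Ezh1, -0.12 to 0.04 at 12 months, was the narrowest of the 5, and that of Ezh2, -0.01 to 0.35, the widest. Ezh2 was counted at low levels, from 3.72 through 4.201 to 5.29 CPM in WT + IPTG and from 3.50 through 4.70 to 5.98 CPM in LacQ140 mice at 12 months, and the groups overlapped over most of their range.

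**Figure D2:**
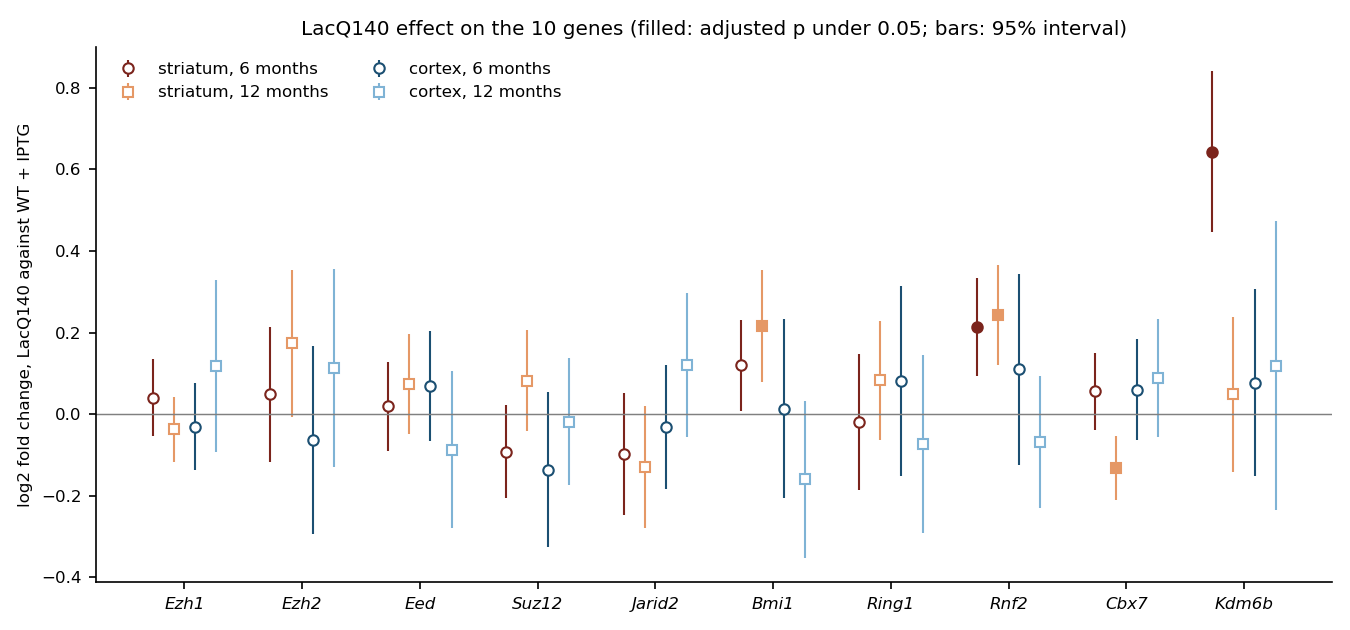
Log2 fold change of LacQ140 against WT + IPTG mice for each gene, by tissue and age, with 95% intervals by a normal approximation. Filled points passed an adjusted p of 0.05: Kdm6b (0.64) and Rnf2 (0.21) in striatum at 6 months, and Rnf2 (0.24), Bmi1 (0.22) and Cbx7 (-0.13) in striatum at 12 months.

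Cell type markers moved in the same striatal libraries. Of 8 markers of striatal spiny neurons, 7 fell at each age, and they summed to 6295 ± 788 CPM in WT + IPTG and 4799 ± 364 CPM in LacQ140 mice at 6 months, and to 7213 ± 902 and 3926 ± 300.6 CPM at 12 months (n = 9 to 10). Astrocyte markers fell in 4 and 3 of 6 genes, microglial markers in 4 and 2 of 6, oligodendrocyte markers in 3 and 2 of 6, and endothelial markers in 2 and 4 of 5. Markers of dividing cells and new neurons rose in 2 of 6 genes at each age, with summed levels in WT + IPTG and LacQ140 mice of 24.0 ± 4.60 and 32.4 ± 3.54 CPM at 6 months and 19.2 ± 1.81 and 29.3 ± 4.05 CPM at 12 months. Most of this sum came from Dcx and Sox11, which averaged 10.85 and 10.04 CPM over the 6-month striatum. Mki67, Top2a, Cdk1 and Ccnb1 averaged at most 1.946 CPM each there. Of 8 markers of cortical projection neurons 1 rose and 2 fell at 6 months and 3 rose at 12 months, and none of 3 markers of oligodendrocyte precursors passed at either age. The part of these shifts in the changes of Kdm6b, Rnf2, Bmi1 and Cbx7 was not tested.

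In cortex the LacQ140 effect passed the test for none of the 10 members, against 1.05% of all genes at 6 months and 0.0899% at 12 months, and no member had an unadjusted p under 0.05 at either age. At 6 months the log2 fold changes ran from -0.14 (Suz12) to 0.11 (Rnf2), with 95% intervals within -0.33 to 0.34. At 12 months they ran from -0.16 (Bmi1) to 0.12 (Jarid2), with intervals within -0.35 to 0.47. Kdm6b, which rose in the 6-month striatum, ran from 13.8 through 18.2 to 20.8 CPM in WT + IPTG and from 15.0 through 19.3 to 23.8 CPM in LacQ140 cortex at that age. The groups overlapped over most of their range and the log2 fold change was 0.08 (95% interval -0.15 to 0.31).

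Whether the effect differed between striatum and cortex was tested as an interaction. No member passed, against 0.663% of genes at 6 months and 2.55% at 12 months, and 1 and 4 members had an unadjusted p under 0.05. The largest difference was that of Kdm6b at 6 months, with a log2 difference of 0.56 (SE 0.16, adjusted p = 0.076). Striatum and cortex came from the same mice, and with the mouse as a block the difference was 0.55 (adjusted p = 0.0163). Without the 5 cortex libraries that stand apart it was 0.56 (adjusted p = 0.0273). At 12 months the log2 differences were 0.36 for Bmi1 (adjusted p = 0.116), 0.29 for Rnf2 (0.13), -0.24 for Cbx7 (0.121) and -0.27 for Jarid2 (0.292).

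The second question was what lowering of mHtt did, with each lowering group set against LacQ140 mice. These comparisons share the LacQ140 libraries with the comparison above, so values are given side by side. The groups also differ in IPTG, so these comparisons by themselves cannot tell lowering from IPTG. The effect of IPTG in WT mice is given further below. In LacQ140_A against LacQ140 mice 1 of 10 members passed in striatum at 6 months, Rnf2, against 2.39% of all genes. Rnf2 ran from 16.9 through 19.8 to 23.4 CPM in LacQ140_A mice, and 9 of these 10 libraries lay below the lowest LacQ140 library. This is a log2 fold change of -0.24 with an SE of 0.06 (adjusted p = 0.0205). In the same libraries 7 of 8 markers of striatal spiny neurons rose, with sums of 6161 ± 710 CPM in LacQ140_A and 4799 ± 364 CPM in LacQ140 mice, and 1 of 6 markers of dividing cells and new neurons fell, with sums of 24.2 ± 3.31 and 32.4 ± 3.54 CPM. The part of these shifts in the change of Rnf2 was not tested. In WT striatum at 6 months, Rnf2 averaged 21.89 CPM without IPTG and 20.31 CPM with it, a difference that did not pass. The part of IPTG in the change of Rnf2 was not tested. At 12 months LacQ140_A mice ran from 13.8 through 18.6 to 21.0 CPM, and Rnf2 did not pass. No member passed in LacQ140_A striatum at 12 months (1.25% of genes) or in LacQ140_A cortex at 6 and 12 months (0.00834% and 0.0435%). Kdm6b ran from 18.3 through 22.1 to 28.7 CPM in the 6-month LacQ140_A striatum and from 17.9 through 25.2 to 33.9 CPM at 12 months, with log2 fold changes against LacQ140 mice of -0.23 (adjusted p = 0.303) and -0.21 (adjusted p = 0.425).

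Withdrawal of IPTG at 2 months gave no called member in striatum at 6 months (1.56% of genes) or 12 months (0.769%), or in cortex at 6 months (0%) or 12 months (0.0841%). Kdm6b ran from 18.2 through 21.9 to 28.0 CPM in LacQ140_2M striatum at 6 months, with a log2 fold change against LacQ140 mice of -0.28 (adjusted p = 0.183), and from 26.3 through 29.2 to 33.7 CPM at 12 months. Rnf2 ran from 19.2 through 22.0 to 26.3 CPM and from 17.9 through 19.1 to 20.5 CPM. In the 6-month cortex 4 members had an unadjusted p under 0.05, of which Bmi1 was highest with a log2 fold change of 0.29 (adjusted p = 0.386). In that group 3 of the 5 libraries that stand apart are found, and without the 5 the log2 fold change of Bmi1 was -0.01 and 0 members had an unadjusted p under 0.05. The edgeR test called no gene at all in that comparison, where 3498 genes had an unadjusted p under 0.05.

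Withdrawal at 8 months was studied at 12 months alone. In striatum no member passed, against 0.00565% of genes, none had an unadjusted p under 0.05, and the log2 fold changes ran from -0.05 (Ezh2) to 0.09 (Kdm6b), with 95% intervals within -0.23 to 0.29. Rnf2 ran from 17.6 through 19.8 to 22.2 CPM and Bmi1 from 26.4 through 30.8 to 35.6 CPM in LacQ140_8M mice. In cortex no member passed, edgeR called 0% of genes, 977 genes had an unadjusted p under 0.05, and the members' log2 fold changes ran from -0.07 (Jarid2) to 0.09 (Ring1).

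**Figure D3:**
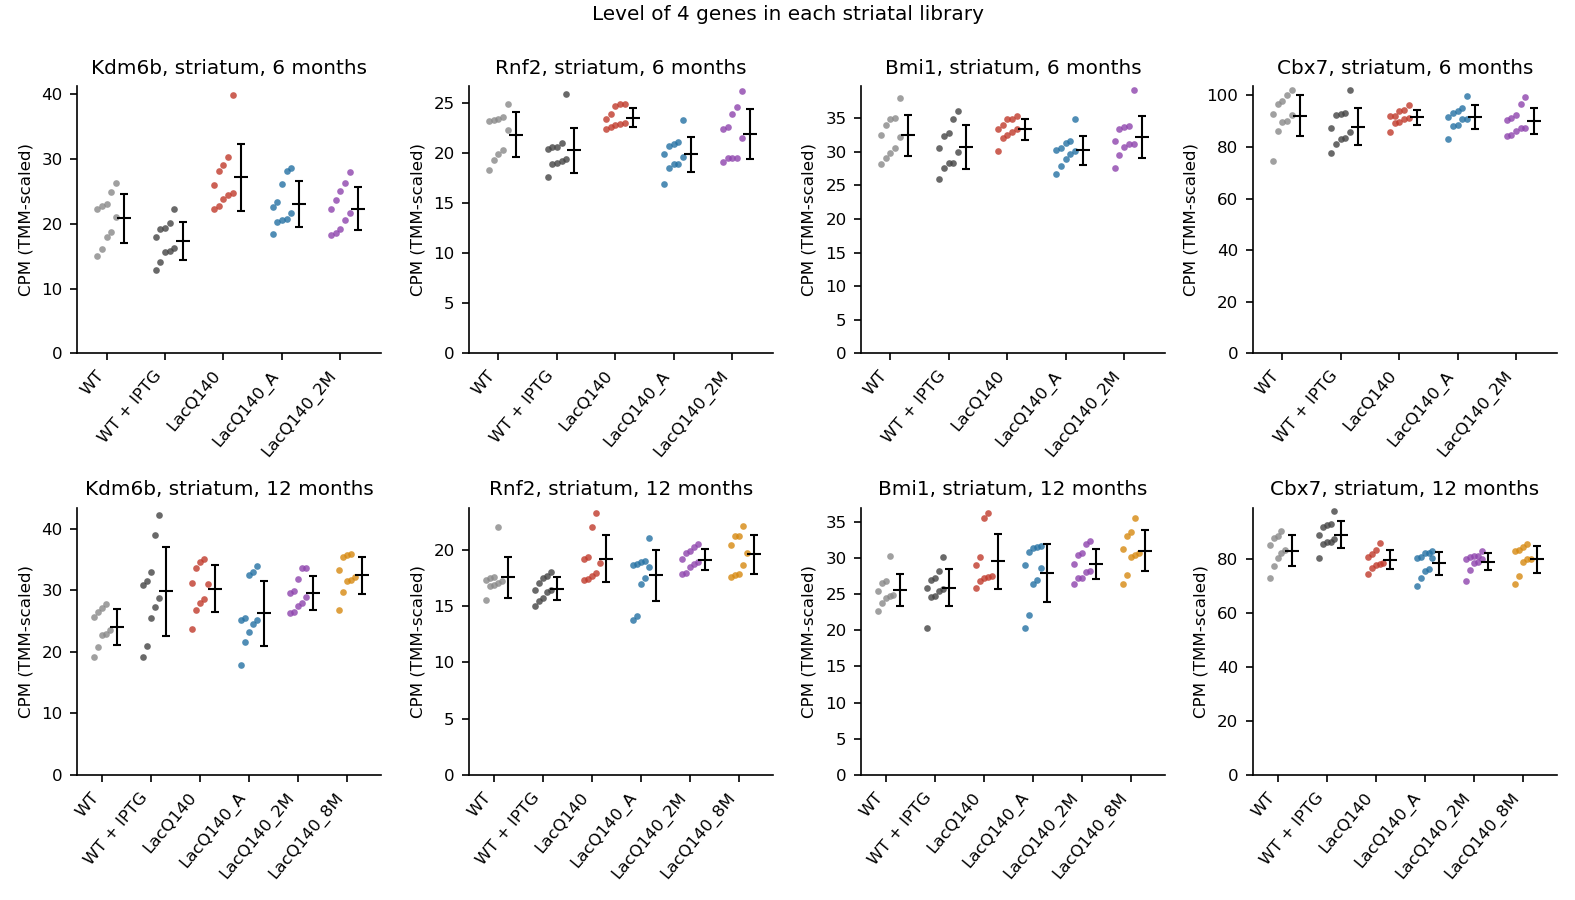
CPM (TMM-scaled) of Kdm6b, Rnf2, Bmi1 and Cbx7 in each striatal library, by condition, at 6 months (top) and 12 months (bottom), with the mean and SD beside the points. At 6 months 9 of 10 LacQ140 libraries exceed all WT + IPTG libraries for Kdm6b and 9 of 10 LacQ140_A libraries lie below all LacQ140 libraries for Rnf2, while at 12 months the Kdm6b ranges of these groups overlap.

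LacQ140_A mice were also set against WT mice, as neither group received IPTG. Eed, the subunit that reads the mark of PRC2, was lower in LacQ140_A striatum at 6 months. WT mice ran from 12.2 through 13.2 to 15.0 CPM and LacQ140_A mice from 10.6 through 11.4 to 13.1 CPM. All 10 LacQ140_A libraries lay below the WT median and 9 below the lowest WT library. This is a log2 fold change of -0.22 with an SE of 0.06 (adjusted p = 0.0366), and with the 2 groups fitted alone it was -0.21 (adjusted p = 0.101). This was 1 of 10 members, against 1.16% of all genes. In the same libraries 2 of 8 markers of striatal spiny neurons fell, with sums of 6161 ± 710 CPM in LacQ140_A and 6875 ± 746 CPM in WT mice, 2 of 6 oligodendrocyte and 1 of 6 astrocyte markers fell, and 1 of 3 markers of oligodendrocyte precursors rose. The part of these shifts in the level of Eed was not tested. WT + IPTG mice also lay below WT mice at 6 months, with means of 12.4 and 13.32 CPM of Eed. At 12 months the mean of Eed was instead higher in LacQ140_A striatum, 9.837 CPM against 9.166 CPM in WT mice. No member passed in striatum at 12 months (4.85% of genes) or in cortex at 6 months (0.458%) or 12 months (0.0174%). In the 6-month cortex, where WT holds 2 of the libraries that stand apart, 5 members had an unadjusted p under 0.05, led by Bmi1 with a log2 fold change of -0.36 (adjusted p = 0.144). Without the 5 libraries this was -0.14 (adjusted p = 0.458), and 2 members had an unadjusted p under 0.05.

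IPTG itself was tested in WT mice. No member passed in striatum at 6 months (0.673% of genes) or 12 months (0.257%) or in cortex at 6 months (0.631%) or 12 months (0%, with 2001 genes at an unadjusted p under 0.05 in edgeR). Kdm6b had the smallest p in striatum at both ages, with a log2 fold change of -0.27 (adjusted p = 0.305) at 6 months and 0.29 (adjusted p = 0.169) at 12 months. In the 6-month cortex, where WT holds 2 of the libraries that stand apart, Bmi1 gave -0.32 (adjusted p = 0.182), and -0.12 (adjusted p = 0.6) without the 5 libraries. In cortex at 12 months Ring1 gave -0.27 (adjusted p = 0.69) and Bmi1 0.24, and Bmi1 passed with the length slope as a covariate (0.24, adjusted p = 0.0484).

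Females and males were compared over all groups of a tissue and age. No member passed in striatum at 6 months (0.483% of genes) or 12 months (0.328%) or in cortex at 6 months (0.35%) or 12 months (0.154%). The log2 differences, female minus male, ran from -0.09 (Suz12, striatum, 12 months) to 0.19 (Ezh2, cortex, 6 months), with 95% intervals within -0.20 to 0.33. No member passed the test of whether the LacQ140 effect differed by sex. The background was 0% in striatum at 6 months, 0.00565% in striatum at 12 months and 0% in cortex at both ages, where edgeR gave 1385, 3289, 1069 and 2956 genes an unadjusted p under 0.05 in striatum at 6 and 12 months and in cortex at 6 and 12 months. Kdm6b gave the smallest p in striatum at 12 months, with a log2 difference, female minus male, of -0.55 (adjusted p = 0.24).

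Striatum and cortex were then compared in WT mice. At 6 months 6 of 10 members passed, against 34.1% of all genes and 62.9% of genes with an average of at least 1 CPM. Ezh2 was higher in striatum, from 4.81 through 5.53 to 6.62 CPM against 2.78 through 3.15 to 4.33 CPM in cortex, so that the groups did not overlap. Its log2 difference, striatum minus cortex, was 0.81 (SE 0.10, adjusted p = 1.82e-11). Jarid2 was higher by 0.57, Ring1 by 0.50, Cbx7 by 0.35 and Ezh1 by 0.13, and Rnf2 was lower in striatum with a log2 difference of -0.36 (SE 0.10, adjusted p = 0.00143). With the mouse as a block 8 members passed, Eed (0.14, adjusted p = 0.0185) and Kdm6b (0.27, adjusted p = 0.0213) in addition. Kdm6b differed by 0.09 (adjusted p = 0.623) without the 5 cortex libraries that stand apart and by -0.04 (adjusted p = 0.884) in WT + IPTG mice, and Eed by 0.13 (adjusted p = 0.098) without the 5. Without them, Rnf2 differed by -0.17 (adjusted p = 0.0339) and Ezh1 no longer passed (0.11, adjusted p = 0.124). In WT + IPTG mice, a comparison also chosen after seeing the data, 5 members passed, Ezh2, Jarid2, Cbx7, Eed and Suz12, all higher in striatum. Rnf2 (-0.23, adjusted p = 0.0599), Ring1 (0.21, adjusted p = 0.119) and Ezh1 (0.08, adjusted p = 0.257) did not pass there. In WT mice Ezh1 also did not pass with DESeq2 size factors (0.11, adjusted p = 0.101).

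At 12 months all 10 members differed between the tissues, against 48.2% of all genes and 87.2% of genes with an average of at least 1 CPM. Kdm6b was 2.44 higher in striatum on the log2 scale, with 19.2 through 23.6 to 27.7 CPM against 2.38 through 4.42 to 5.91 CPM in cortex. Jarid2 was higher by 1.77, Ezh1 by 1.06, Suz12 by 0.88, Cbx7 by 0.54 and Ezh2 by 0.49. Ring1 (-0.64), Rnf2 (-0.58), Bmi1 (-0.47) and Eed (-0.34) were lower in striatum. The longest transcripts, those of Kdm6b, Jarid2, Suz12 and Ezh1, were all on the side of striatum, and the length slope of the cortex was below 0 at this age. With that slope as a covariate, 5 members passed, Kdm6b at 1.2, Jarid2 at 1.16, Ezh2 at 0.91, Suz12 at 0.43 and Rnf2 at -0.32, and the differences of Ring1, Bmi1 and Eed turned to 0.13, 0.06 and 0.18. The covariate also moved the median log2 difference over genes with an average of at least 1 CPM by -0.15. The slopes of the 2 tissues did not overlap at this age, with at most 0.0734 in cortex and at least 0.232 in striatum. The fit with the covariate therefore cannot show which differences hold apart from length bias. Ezh2 and Jarid2, higher in striatum, and Rnf2, lower there, passed in the same direction at both ages in WT mice.

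Across libraries, Bmi1 and Rnf2 varied together after group means were taken out. Pearson's r over log2 CPM was 0.802 in the 50 striatal libraries at 6 months and 0.792 in the 57 at 12 months. In the 60 cortical libraries at 12 months it was 0.648. In the 50 cortical libraries at 6 months it was 0.859 with the 5 libraries that stand apart and 0.295 in the other 45, so that it rested on those 5 in that tissue. The pair was not alone in this. Suz12 and Rnf2 correlated by 0.341 and 0.788 in striatum at 6 and 12 months. In cortex they correlated by 0.886 at 6 months (0.695 without the 5) and -0.237 at 12 months. Eed and Bmi1 correlated by 0.687 and 0.503 in striatum, and by 0.441 and 0.806 in cortex, at the 2 ages. These are descriptions over libraries that share depth and length bias, and no test was made. In striatum, r with the length slope was 0.122 for Bmi1 and -0.0144 for Rnf2 at 6 months, and 0.604 and 0.569 at 12 months. In cortex it was 0.473 and 0.724 at 6 months, and -0.789 and -0.62 at 12 months. Suz12 and Bmi1 correlated by 0.569 and 0.701 in striatum at the 2 ages, and Suz12 itself by 0.676 and 0.649 with the length slope. Ring1 went the other way, with r of -0.494 and -0.527 with Bmi1, and of -0.606 and -0.492 with the slope. These relations were not the same in cortex. Suz12 and Bmi1 correlated by 0.72 at 6 months (-0.0303 without the 5 libraries) and by -0.257 at 12 months, and Ring1 and Bmi1 by -0.581 (-0.0701 without the 5) and 0.478.

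The 5 cortical libraries differed from the other 45 in several members. Bmi1 ran from 50.2 to 57.9 CPM in them and from 26.0 to 36.4 CPM elsewhere, Rnf2 from 42.7 to 46.8 against 19.9 to 35.7 CPM, and Suz12 from 39.1 to 45.7 against 21.6 to 33.3 CPM. These ranges did not overlap. Cbx7 was below the others, from 55.7 to 65.8 against 67.5 to 87.6 CPM. Kdm6b (11 to 13.8 against 12.6 to 24.9 CPM) and Ring1 (10.2 to 19.2 against 15.6 to 31.7 CPM) overlapped with the other range, and so did Ezh1, Ezh2, Eed and Jarid2, over most of their ranges. The 5 libraries had totals from 56586908 to 68038831 counts, against 37915538 to 59835720, and length slopes from 0.435 to 0.539, against 0.123 to 0.462. The part of depth and length bias in these levels was not tested.

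**Figure D4:**
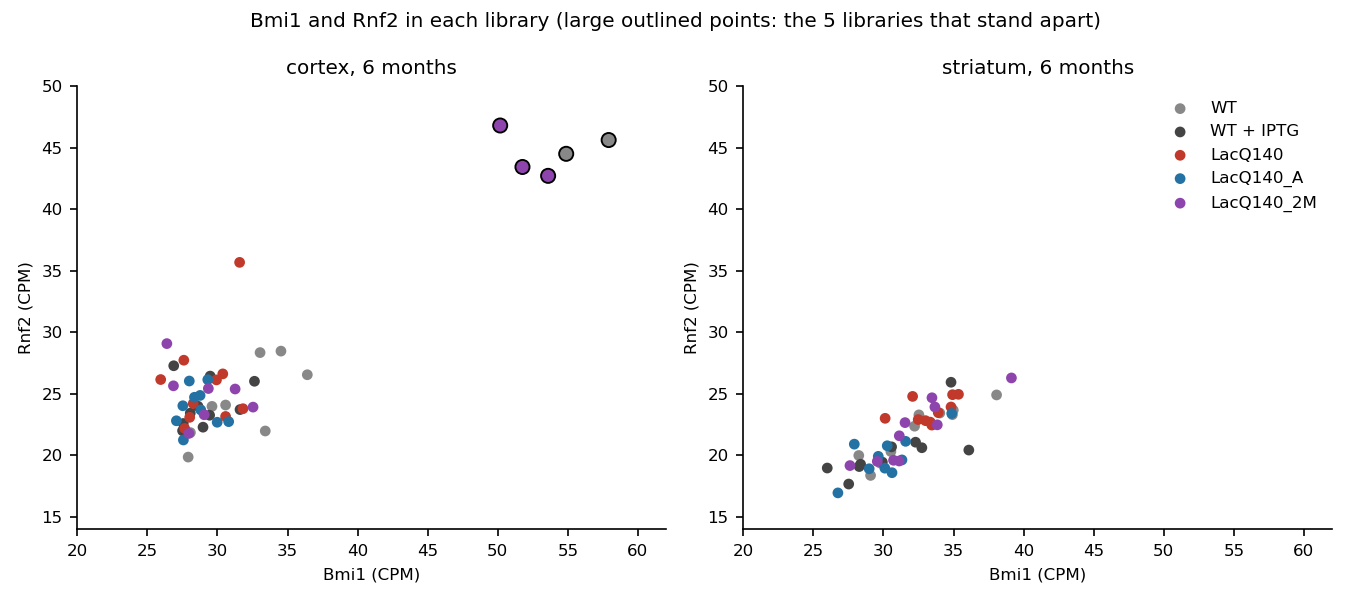
Bmi1 against Rnf2 (CPM) in each 6-month library of cortex (left) and striatum (right), coloured by condition, with the 5 cortical libraries that stand apart as large outlined points. Those 5 lie at 50.2 to 57.9 CPM of Bmi1 and 42.7 to 46.8 CPM of Rnf2, away from the other 45, while the striatal libraries form a single band.

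For each member the gene most like it in the 6-month striatum was taken from 14352 candidates, by Pearson's r of log2 CPM after group means were taken out (n = 50), and r in the 12-month striatum (n = 57) was read beside it. Kdm6b was most like Tnrc18, with r of 0.86 and 0.881. Bmi1 was most like Zfp758 (0.891 and 0.751), Rnf2 like Ccng2 (0.811 and 0.749), Suz12 like Hdgfl3 (0.88 and 0.732) and Jarid2 like Crebbp (0.809 and 0.686). For Eed it was Tmem165 (0.804 and 0.608), for Ring1 Acaa1a (0.875 and 0.603), for Cbx7 Kcnh4 (0.833 and 0.579) and for Ezh1 Cipc (0.841 and 0.429). Ezh2 had the weakest likeness, with Cdc14a at 0.637 and then 0.0278 at 12 months. The first value of each pair was selected as the highest and is a description.

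Other genes of the pathway were counted in the same way. Of 18 other PRC1 subunits, 6 rose and none fell at 6 months in LacQ140 against WT + IPTG mice, and 4 rose and 2 fell at 12 months, of which 3 in all passed the bound of a 20% change. The background was 11.8% and 14% of all genes, or 24.7% and 28.8% of genes with an average of at least 1 CPM. Their median log2 fold changes were 0.10 and 0.07. Cbx8, which reads the mark of PRC2 as Cbx7 does, ran from 8.75 through 11.1 to 15.6 CPM in WT + IPTG and from 16.01 through 20.9 to 29.4 CPM in LacQ140 mice at 6 months, so that the groups did not overlap. It rose by 0.93 on the log2 scale at each age (adjusted p = 2.09e-11 and 1.11e-14). Pcgf2, a paralog of Bmi1 that takes its place in PRC1, rose by 0.65 (adjusted p = 3.65e-07) and 0.48 (adjusted p = 5.12e-06). Cbx2 rose by 0.61 at 6 months (adjusted p = 0.000104) and gave 0.14 (adjusted p = 0.517) at 12 months. Among the genes that did not come by the naming rule, Bcor (0.24) and L3mbtl2 (0.18) rose at 6 months, and L3mbtl2 (0.14) rose and Cbx6 (-0.17) and Scmh1 (-0.16) fell at 12 months.

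In LacQ140_A mice, Cbx8 was lower than in LacQ140 mice, with a log2 fold change of -0.54 at 6 months (adjusted p = 5.92e-05) and -0.35 at 12 months (adjusted p = 0.00747). At 12 months the spiny neuron markers summed to 4933 ± 462.5 CPM in LacQ140_A and 3926 ± 300.6 CPM in LacQ140 striatum. The part of these markers in the changes of LacQ140_A mice, here and below, was not tested. In LacQ140_2M mice the log2 fold changes at 6 months were -0.70 for Cbx8 (adjusted p = 6.02e-07) and -0.51 for Cbx2 (adjusted p = 0.00706). In those libraries 6 of 8 spiny neuron markers rose, with sums of 5893 ± 235 CPM against 4799 ± 364 CPM in LacQ140 mice, and 1 of 6 markers of dividing cells and new neurons fell, with sums of 27.6 ± 3.29 and 32.4 ± 3.54 CPM. Their part in these changes was not tested. Cbx8 did not pass at 12 months after withdrawal at 2 or 8 months. In LacQ140_8M mice it averaged 17.6 ± 1.495 CPM, against 17.6 ± 2.09 CPM in LacQ140 mice. In the 6-month cortex 1 of the 18 other PRC1 subunits, Cbx2, passed in the LacQ140 comparison (1.05% of all genes, 2.35% of genes with an average of at least 1 CPM), and 3, Cbx2 and Cbx8 among them, passed without the 5 libraries that stand apart. Between 2 and 4 passed with DESeq2, with filterByExpr, with pooled controls, with the length slope or with the 2 groups alone, and none without LacQ140 female 1 or female 5 or without WT + IPTG male 3. Without WT + IPTG male 5 the count was 2. In LacQ140 and WT + IPTG cortex at 6 months, astrocyte markers summed to 2598 ± 206 and 2940 ± 240.3 CPM. Endothelial markers summed to 188.1 ± 15.01 and 218.4 ± 13.79 CPM. Markers of dividing cells and new neurons went the other way, with 27.75 ± 2.962 and 24.36 ± 1.945 CPM. The part of these shifts in the PRC1 changes was not tested. None passed in the 12-month cortex. The interaction with tissue passed for 3 of the 18 at 6 months and for 1 at 12 months, against 0.663% and 2.55% of all genes, or 1.49% and 5.82% of genes with an average of at least 1 CPM. The effect on Cbx8 was larger in striatum than in cortex by a log2 difference of 0.57 (adjusted p = 0.0245) at 6 months and 0.88 (adjusted p = 8.51e-06) at 12 months. Bcor gave 0.46 at 6 months (adjusted p = 0.00251).

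**Figure D5:**
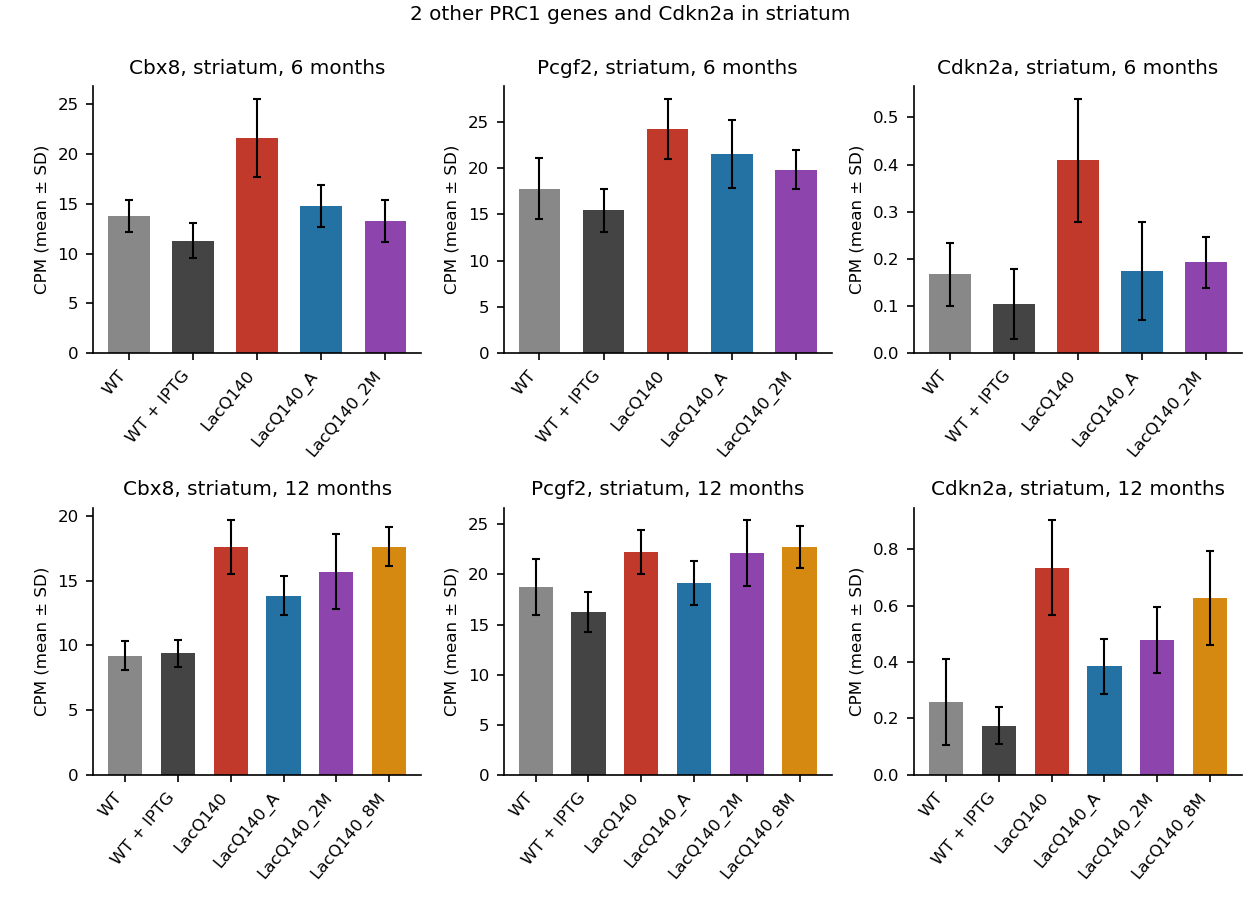
Mean CPM (TMM-scaled, bars; SD, whiskers; 9 or 10 libraries) of Cbx8, Pcgf2 and Cdkn2a in striatum by condition at 6 months (top) and 12 months (bottom). Cbx8 averages 11.3 CPM in WT + IPTG and 21.6 CPM in LacQ140 mice at 6 months, and LacQ140_8M mice stand near LacQ140 mice for all 3 genes at 12 months.

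Of 7 other PRC2 subunits none passed in the 6-month striatum, while 1 passed with DESeq2, filterByExpr, sex or the length slope and 2 with pooled controls. At 12 months Phf1, an accessory subunit, rose by 0.18 (adjusted p = 0.0135) and Epop, which links PRC2 to elongin, fell, with 8.60 ± 3.06 CPM in LacQ140 against 17.6 ± 2.71 CPM in WT + IPTG mice (log2 fold change -1.002, adjusted p = 1.6e-10). Epop averaged 12.2 ± 2.57 CPM in LacQ140_A, 10.9 ± 1.26 in LacQ140_2M and 9.14 ± 1.31 in LacQ140_8M mice. Rbbp4 (0.09, adjusted p = 0.0748) and Rbbp7 (-0.06, adjusted p = 0.494), histone-binding subunits, did not pass at 12 months. Of 5 other removers of Polycomb marks, Asxl1 (0.37) and Asxl3 (0.42) rose and Bap1 (-0.11, adjusted p = 0.0336) fell at 6 months, and Asxl3 (0.45, adjusted p = 0.000422) rose and Bap1 (-0.32, adjusted p = 5.91e-11) fell at 12 months, when 4 of the 5 passed with the length slope as a covariate. These are shares of short lists, beside 24.7% and 28.8% of all genes with an average of at least 1 CPM at the 2 ages (11.8% and 14% of all genes). The 6-month call of Bap1 was lost with the 2 groups alone (adjusted p = 0.0521), and in 7 of 20 fits that left out a library (adjusted p up to 0.0653), those without LacQ140 female 2, male 1 or male 2 or without WT + IPTG female 2, female 3, male 3 or male 5. Bap1 is the enzyme that takes ubiquitin off H2A, with Asxl proteins as partners. In cortex no other PRC2 subunit or remover passed at either age, although 1 remover passed at 6 months with the length slope as a covariate. At 12 months the effects differed between striatum and cortex for Epop (-0.99, adjusted p = 6.48e-06) and Bap1 (-0.33, adjusted p = 0.000187).

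Genes that Polycomb is known to silence were counted from a list of 41 Hox and Cdkn2 genes. In striatum 2 of 26 tested passed at 6 months, Cdkn2a and Hoxa7, and 8 of 30 at 12 months, each higher in LacQ140 mice, against 11.8% and 14% of all genes. A single read in any group admitted a gene to the test, and 4 of the 26 and 9 of the 30 had no read in WT + IPTG mice and could not fall, so no direction is read from these counts. With filterByExpr, which leaves out genes of few reads, 1 and 5 passed. In cortex none of 28 and 25 passed, against 1.05% and 0.0899% of all genes. Hoxa7 was named after its values were seen. No median is given, since the fitted values of genes without reads in the controls are no bound. Cdkn2a, an inhibitor of the cell cycle, averaged 0.105 ± 0.0739 CPM in WT + IPTG and 0.409 ± 0.131 CPM in LacQ140 striatum at 6 months, and 0.175 ± 0.0652 and 0.734 ± 0.168 CPM at 12 months (log2 fold changes 1.91 and 2.10, adjusted p = 2.93e-07 and 1.26e-11). In LacQ140_A mice it averaged 0.174 ± 0.104 and 0.384 ± 0.0967 CPM at the 2 ages, below LacQ140 mice by -1.21 (adjusted p = 0.00103) and -0.93 (adjusted p = 0.0014), and in LacQ140_8M mice 0.627 ± 0.167 CPM.

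Hoxc4, Hoxc5 and Hoxc6, transcription factor genes of 1 cluster, were nearly without reads in control striatum and had reads in every LacQ140 mouse at 12 months. Hoxc4 had 7 reads summed over 9 WT mice, 3 over 10 WT + IPTG mice and 601 over 9 LacQ140 mice, with at least 23 in each of the latter. It had 27 reads in LacQ140_A, 52 in LacQ140_2M and 429 in LacQ140_8M mice. Hoxc5 had 0, 6 and 434 reads in WT, WT + IPTG and LacQ140 mice, then 7 and 39 in LacQ140_A and LacQ140_2M mice and 9 to 53 in each LacQ140_8M mouse, and Hoxc6 had 1, 0 and 79 and then 15, 17 and 44. At 6 months LacQ140 mice had 6 reads of Hoxc4 in all. The annotated spans of Hoxc5 and Hoxc6 overlap, so reads may be split between these, while that of Hoxc4 overlaps neither.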

How the data were processed

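Total RNA of striatum and cortex was sequenced as paired-end reads, and the authors deposited a table of estimated counts (expected counts, not all whole) per Ensembl gene for each age. The build is GRCm38 per the submitters' processing notes. The aligner, counting program and strand setting are not given in the sources used here. Of 54532 gene IDs, 54495 matched a symbol in the reference annotation, and every column matched a labelled library (0 unmatched). Tables were analysed within an age.

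Counts were rounded to whole numbers and tested with edgeR's quasi-likelihood test (version 4.0.16, R 4.3.3, TMM factors) in all groups of a tissue and age, over genes with at least 1 count, with Benjamini-Hochberg adjustment over all of them and a threshold of 0.05. Tissue comparisons were fitted over both tissues of an age. Reported ± values are SDs. The SE of a log2 fold change is its absolute value divided by the square root of edgeR's F statistic. The 95% intervals were built from this SE with a normal approximation. Levels per kb used the length of the annotated transcripts, so the choice of isoform can shift them. For correlations, 0.5 CPM was added before taking log2. The code was tested on simulated data.

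The members and lists were chosen with earlier results of these data known. All members were named, and from each list of related genes at most 4 with the smallest p for the LacQ140 effect in striatum at either age. Other genes were named after their values were seen. Striatum and cortex of a mouse share its number in the labels, and their deviations from group means correlated by 0.242 at 6 months and 0.181 at 12 months, against 0.0908 and 0.091 between different mice. Of 963 pairs of libraries within groups none agreed within sampling noise. Alternatives were DESeq2 (1.42.0), size factors, filterByExpr, sex, replicate and mouse blocks, the length slope, a bound of 20% change, fits of the 2 groups alone and leaving out libraries. Values of 1 gene of these lists are not reported here, though the counts include it.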

Additional observations from a re-analysis of the deposited data

Results flagged for a closer look

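Of 220 groups of 9 or 10 libraries (10 genes in 22 groups), 18 held a library whose gap to the nearest other exceeded Dixon's critical value, where chance flags about 1 in 20. The causes were not tested.

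In striatum, Kdm6b in LacQ140 female 5 at 6 months stood at 39.88 CPM, with the next library at 30.33 CPM. Rnf2 was highest in WT + IPTG female 1 at 6 months (25.93 CPM) and in WT male 3 at 12 months (22.07 CPM). Eed was highest in LacQ140_A male 5 at 6 months (13.12 CPM). Ezh1 was lowest in LacQ140_2M male 1 at 6 months (66.43 CPM) and in WT female 2 at 12 months (68.55 CPM).

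In the 6-month cortex, LacQ140 female 5 was the highest of its group for Rnf2 (35.67 CPM) and the lowest for Cbx7 (71.61 CPM), and LacQ140_A male 5 was the highest for Ezh1 (79.06 CPM). In the 12-month cortex, LacQ140_A female 4 was the highest of its group for Ring1 (48.34 CPM) and Rnf2 (33.13 CPM) and the lowest for Suz12 (13.88 CPM). WT + IPTG female 4 was the highest for Ring1 (44.72 CPM) and Rnf2 (34.89 CPM). Rnf2 was also highest in LacQ140_2M female 4 (37.49 CPM) and LacQ140_8M female 3 (34.02 CPM), Cbx7 was lowest in WT female 4 (42.22 CPM), and Ezh2 was highest in LacQ140 male 1 (4.847 CPM).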

How the results depend on the processing

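At a bound of 20% change, the LacQ140 effect in striatum called 1 member at 6 months and 0 at 12 months, LacQ140_A against WT called 0 and lowering in LacQ140_A called 0 at 6 months. With the 2 groups alone, LacQ140_A against WT called 0. With the length slope as a covariate, the IPTG effect in the 12-month cortex called 1 member and the tissue difference at 12 months called 5. The LacQ140 effect in striatum minus cortex at 6 months called 1 member, Kdm6b, with the mouse as a replicate block and 1 without the 5 cortex libraries that stand apart.

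Direction changed as follows. With both control groups pooled, the LacQ140 effect in cortex was 0.0076 for Eed and 0.0488 for Suz12 at 12 months and -0.147 for Bmi1, 0.00727 for Ezh1 and -0.00624 for Rnf2 at 6 months, and in striatum at 6 months -0.0356 for Eed. With the length slope it was 0.0074 for Eed, -0.00564 for Ezh1, -0.0377 for Kdm6b and 0.0285 for Ring1 in the 12-month cortex, 0.00406 for Jarid2 in the 6-month cortex and 1.03e-05 for Ring1 in the 6-month striatum. The tissue difference turned to 0.0569 for Bmi1, 0.18 for Eed and 0.13 for Ring1 at 12 months and 0.0379 for Suz12 at 6 months with the length slope, to 0.0907 for Bmi1, 0.21 for Suz12 and -0.0445 for Kdm6b in WT + IPTG mice, and to 0.0151 for Bmi1 and 0.0331 for Suz12 without the 5 libraries. Without them the LacQ140_2M lowering effect on Bmi1 in the 6-month cortex was -0.0148. The causes were not tested.

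Over 79 fits that each left out a library, the LacQ140 effect called 2 members in striatum at 6 months and 2 to 3 at 12 months. Its range crossed 0 for Kdm6b (-0.00649 to 0.20), Ring1 (-0.12 to 0.0159) and Suz12 (-0.0405 to 0.0116) in the 12-month cortex, Bmi1 (-0.00412 to 0.035) and Ezh2 (-0.14 to 0.0185) in the 6-month cortex, Kdm6b (-0.00715 to 0.12) in the 12-month striatum, and Eed (-0.003306 to 0.04636), Ezh2 (-0.0115 to 0.11) and Ring1 (-0.0633 to 0.0108) in the 6-month striatum.

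In striatum at both ages and in the 6-month cortex, replicate numbers did not pair the samples across groups. Their mean correlation was 0.0623 to 0.071, against 0.089 to 0.116 between other numbers of a sex. In the 12-month cortex it was 0.0797 against 0.0397, with pairs of groups from -0.0644 to 0.236, and 12 of 60 libraries correlated best with their own number. Female 4 recurs among the libraries flagged in that cortex, in LacQ140_A, WT + IPTG, LacQ140_2M and WT mice. The cause was not tested. With the replicate block, the LacQ140 effect called 2 members at 6 months and 3 at 12 months in striatum, and 1 of the other PRC2 subunits at 6 months.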
